A study of Homo sapiens with 6 samples.

Results

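The BCL2 family was examined as 10 genes chosen by symbol, out of 26819 genes listed in a table of transcript levels. All 10 were found, each on 1 row, and 9 were expressed enough to be tested. The cells were C4-2, a human prostate cancer line that descends from LNCaP and grows without androgen. Every library came from C4-2 cells carrying Tet-O-YAP5SA, a doxycycline-inducible YAP1 whose LATS phosphorylation sites are mutated, so that the coactivator stays active. Cells given doxycycline for 24 hours (Dox, 3 libraries) were set against cells without it (Ctrl, 3 libraries), to ask which transcripts respond to active YAP1. The labelled dose of 0.2 mg/ml is high for such a line and its unit is in doubt. The labels give neither a doxycycline control without the transgene nor whether the line is 1 clone, and an effect of the drug itself cannot be told apart from that of YAP1. Nothing says that replicates were separate cultures, so the spread behind each p-value is that of these libraries and could be technical.

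Proteins of the BCL2 family decide whether the mitochondrial outer membrane is opened, the step that releases cytochrome c and starts the caspases. Anti-apoptotic members (BCL2, BCL-XL from BCL2L1, BCL-W from BCL2L2, and MCL1) hold the pore-forming effectors BAX and BAK1 in check. BH3-only members (BID, BIM from BCL2L11, PUMA from BBC3, and NOXA from PMAIP1) bind the anti-apoptotic proteins, and some of them also activate the effectors directly. The values here are transcript levels of whole genes, so splice forms with opposed functions, such as the long and short forms of BCL2L1 and MCL1, are not separated, and protein was not measured.

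Levels are in TPM, as the authors deposited them, a share of transcripts corrected for gene length that sums to 1000000 in each library, and whole reads recovered from them came to between 24960742 and 29261886 per library. The transgene's own gene, YAP1, was at 269 ± 6.92 TPM in Dox and 56.8 ± 3.72 TPM in Ctrl (SD, n = 3 each). Of 10 luminal prostate markers all 10 were tested, with 4 higher and 5 lower in Dox, against 35.9% and 17.8% of all tested genes. The summed level of these 10 markers was 4570 to 4627 TPM in Dox and 5682 to 5725 TPM in Ctrl. Of 3 basal markers KRT5 and TP63 had at most 1 read in any library, but KRT14 was detected in both groups, at 1.44 ± 0.290 TPM in Dox and 1.48 ± 0.175 TPM in Ctrl, from 20 to 33 reads (log2 fold change -0.03 ± 0.13, limma adjusted p = 0.876). The 5 listed of 8 stromal, endothelial and immune markers summed to 0.657 to 0.830 TPM in Dox and 0.391 to 0.474 TPM in Ctrl, and none was high enough to be tested. They did not move together: the endothelial CDH5, singled out after its values were seen, had 17, 28 and 24 reads in Dox, against 0, 0 and 1 in Ctrl, whereas the mean levels of CD14 and LYZ were lower in Dox, with overlapping groups and at most 5 reads a library. The part of these markers in the results was not tested. With bulk RNA of 1 cell line, fewer cells with a transcript and less of it per cell cannot be told apart.

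BCL2L1 rose most of the family, MCL1 rose less, and PMAIP1, BCL2L11 and BBC3 fell. Of the 9 tested members, 4 were higher and 4 lower in Dox (limma on log2(TPM + 1), Benjamini-Hochberg adjusted p under 0.05 over 14833 genes). The Dox and Ctrl libraries did not overlap for 8 of the 9 tested members and for 61.9% of all tested genes. Among all tested genes 53.7% were called, 35.9% higher and 17.8% lower, so being called says little by itself. After median-ratio rescaling 2 members were higher and 5 lower, as they were after quantile normalization, because the small changes of BAX, BID and BAK1 depend on the scaling. Across all tested genes the median change (log2) was 0.10 on the deposited scale and -0.0047 after median-ratio rescaling. After that rescaling 3915 of the 14833 tested genes were higher and 4010 lower. A called change of 1 or more on the log2 scale, in either direction, was found for 2 of the 9 tested members and for 4.89% of all tested genes.

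**Figure D1:**
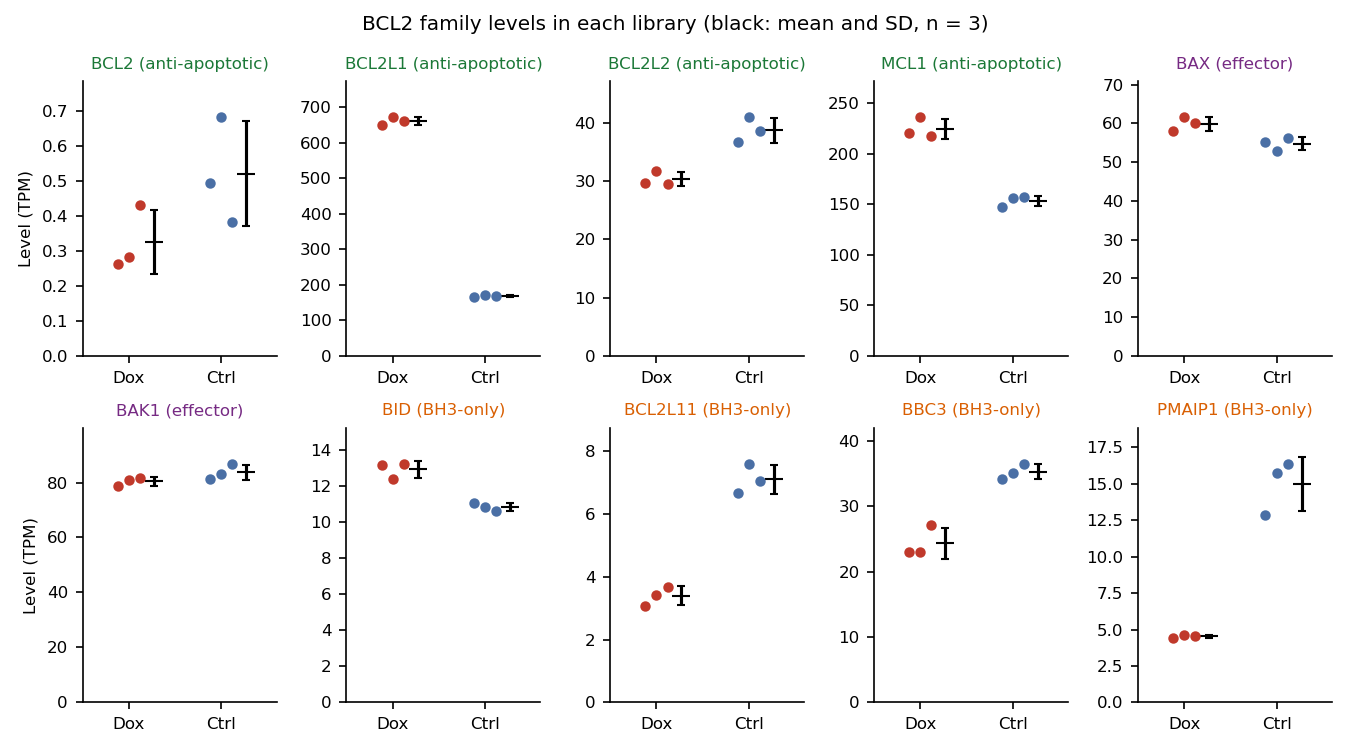
Level of each BCL2 family gene in TPM (vertical axis, from 0, with its own scale in each panel) in the 3 Dox and 3 Ctrl libraries. Points are libraries and black marks are means with SD. The 3 Dox libraries of BCL2L1 lie between 649 and 671 TPM, above all Ctrl libraries, and those of PMAIP1 between 4.42 and 4.65 TPM, below all Ctrl libraries.

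Promoter windows are shown for the member that rose most and for the 3 that fell among the BH3-only genes. Windows of 300 bases, from 250 before to 50 after a gene's start, were taken from RefSeq (GRCh38.p14). Windows were held for 8 of the 10 members, 13 windows in all. MCL1 and BCL2L2 were not matched. The motifs searched on both strands were GGAATG (TEAD factors, the DNA-binding partners of YAP1), CACGTG (the E-box bound by MYC), TGANTCA (AP-1), GTAAACA (FOXO) and TGACGTCA (CRE). Capitals mark matches, and no 2 matches overlapped.
BCL2L1, upstream start, chr20:31723914-31724213, minus strand: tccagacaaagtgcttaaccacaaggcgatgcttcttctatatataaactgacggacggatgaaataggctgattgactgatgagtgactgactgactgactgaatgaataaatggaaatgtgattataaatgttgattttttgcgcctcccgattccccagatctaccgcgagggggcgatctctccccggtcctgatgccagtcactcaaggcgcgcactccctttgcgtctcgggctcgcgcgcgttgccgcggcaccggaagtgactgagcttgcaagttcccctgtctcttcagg
BCL2L1, downstream start, chr20:31722819-31723118, minus strand: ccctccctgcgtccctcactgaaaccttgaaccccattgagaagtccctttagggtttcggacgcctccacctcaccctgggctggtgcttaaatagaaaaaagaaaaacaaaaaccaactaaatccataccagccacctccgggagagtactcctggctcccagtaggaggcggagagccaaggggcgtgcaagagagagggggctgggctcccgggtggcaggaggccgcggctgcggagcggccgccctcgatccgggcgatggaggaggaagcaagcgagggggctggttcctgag
PMAIP1, chr18:59899746-59900045, plus strand: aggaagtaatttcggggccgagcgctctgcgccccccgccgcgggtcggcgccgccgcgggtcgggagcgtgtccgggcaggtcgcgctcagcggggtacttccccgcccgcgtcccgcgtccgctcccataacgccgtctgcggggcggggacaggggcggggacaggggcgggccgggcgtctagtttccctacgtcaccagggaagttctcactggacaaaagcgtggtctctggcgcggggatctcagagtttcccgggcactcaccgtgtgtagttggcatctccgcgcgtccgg
BCL2L11, chr2:111120664-111120963, plus strand: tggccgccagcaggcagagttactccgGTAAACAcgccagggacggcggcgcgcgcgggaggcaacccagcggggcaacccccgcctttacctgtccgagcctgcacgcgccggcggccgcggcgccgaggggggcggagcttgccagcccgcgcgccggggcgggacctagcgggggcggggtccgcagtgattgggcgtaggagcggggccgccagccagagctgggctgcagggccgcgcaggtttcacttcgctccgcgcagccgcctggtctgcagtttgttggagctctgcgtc
BBC3, chr19:47232618-47232917, minus strand: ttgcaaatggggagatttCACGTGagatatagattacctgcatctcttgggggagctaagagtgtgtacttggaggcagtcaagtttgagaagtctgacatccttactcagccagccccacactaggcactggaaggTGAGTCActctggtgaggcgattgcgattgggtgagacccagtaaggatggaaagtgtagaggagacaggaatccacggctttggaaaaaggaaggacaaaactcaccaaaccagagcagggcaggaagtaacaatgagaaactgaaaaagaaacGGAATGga

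The 5 motifs were found in neither BCL2L1 window nor in the PMAIP1 window, which says only that these letters are not in these windows. The BCL2L11 window held the FOXO motif at position -223 from the start, and 3.42% of all 35116 windows held it. The BBC3 window held the E-box at -232, the AP-1 motif at -113 and the TEAD motif at position 43. Of all windows, 7.26% held the E-box, 7.71% the AP-1 motif and 14.0% the TEAD motif. Outside the windows shown, BAX held 4 E-boxes, at positions -138, -93, -45 and -14, and BID held 1 E-box, which lies in a pair of overlapping windows, at -106 from one start and -47 from the other. No member window held the CRE, against 1.85% of all windows. The share of G and C differed between the windows shown, at 74.7% for BCL2L11, 71.3% for PMAIP1, 61.3% and 52% for the downstream and upstream BCL2L1 starts and 48% for BBC3, against a median of 58.7% over all windows. A match is a description of the sequence and not a binding site.

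Among the anti-apoptotic members, BCL2L1 (ENSG00000171552.8) had 649, 671 and 662 TPM in the Dox libraries, against 165, 172 and 170 TPM in the Ctrl libraries. The groups are far apart and each is tight, with a 3.91-fold higher mean level in Dox. On the log2 scale the change was 1.96 ± 0.03 (SE; limma adjusted p = 1.18e-08), and 138 tested genes had a larger one. By mean level it ranked 227th of the 26819 listed genes in Dox and 1062nd in Ctrl. Behind these values stand 16112, 18420 and 19291 reads in Dox and 4912, 4808 and 4780 reads in Ctrl. An antisense transcript, ABALON, shares 1424 exon bases with BCL2L1 in GENCODE 29. No value of it was used here. The library kit keeps strand, but whether the counting used it is not stated in the labels.

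MCL1 (ENSG00000143384.8) encodes a short-lived anti-apoptotic protein that restrains BAK1 in particular. It had 221, 236 and 217 TPM in Dox, against 148, 156 and 157 TPM in Ctrl. All Dox libraries lie above all Ctrl libraries, by a smaller step than for BCL2L1. The log2 fold change was 0.55 ± 0.04 (limma adjusted p = 2.9e-05).

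BCL2L2 (ENSG00000129473.5) went the other way, with 29.8, 31.7 and 29.6 TPM in Dox, against 36.7, 41.0 and 38.6 TPM in Ctrl. The groups do not overlap, and the log2 fold change was -0.34 ± 0.05 (limma adjusted p = 0.0011). The readthrough gene BCL2L2-PABPN1 shares 813 exon bases with it on the same strand, so reads in those bases cannot be assigned with certainty. That gene had 81.1 ± 5.11 TPM in Dox and 77.3 ± 5.37 TPM in Ctrl, a log2 fold change of 0.07 ± 0.06 that did not pass (limma adjusted p = 0.39).

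BCL2 (ENSG00000171791.10), the founding member, was barely transcribed in these cells. It had 0.261, 0.284 and 0.430 TPM in Dox, from 15, 18 and 29 reads, against 0.495, 0.681 and 0.384 TPM in Ctrl, from 34, 44 and 25 reads. The groups overlap. It stayed under the level needed for the test, and without that filter its log2 fold change was -0.20 ± 0.10 (limma adjusted p = 0.21), with the size limited by the low level.

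**Figure D2:**
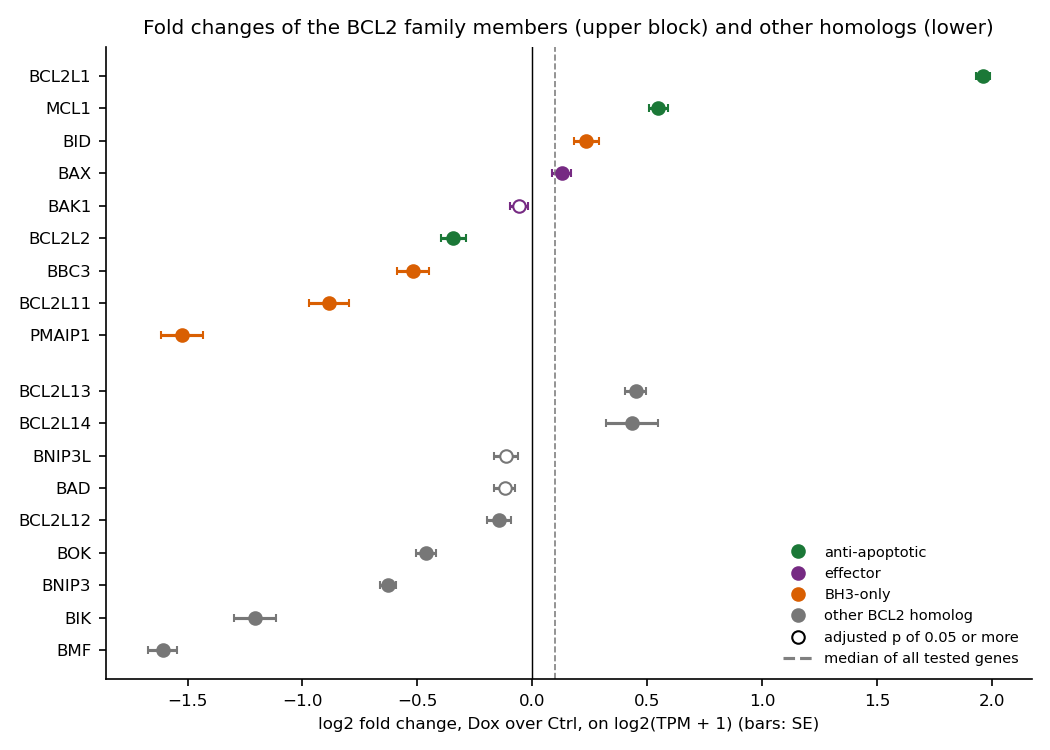
Log2 fold change, Dox over Ctrl, on log2(TPM + 1) (horizontal axis, bars are SE) for the 9 tested members (upper block) and the 9 tested other homologs (lower block). Open points have an adjusted p of 0.05 or more. BCL2L1 stands at 1.96, whereas PMAIP1 and BMF stand at -1.52 and -1.61.

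The effectors moved little. BAX (ENSG00000087088.15) had 57.9, 61.6 and 60.1 TPM in Dox, against 55.2, 52.8 and 56.1 TPM in Ctrl. The groups are next to each other without overlap, and the log2 fold change of 0.13 ± 0.04 passed the test (limma adjusted p = 0.0319), close to the median of all genes. The limma call is lost after median-ratio rescaling (log2 fold change 0.01, adjusted p = 0.81), after quantile normalization (0.01, adjusted p = 0.89) and with voom on recovered reads (0.09, adjusted p = 0.15). It is also lost without Dox replicate 2 (limma adjusted p = 0.11) or 3 (0.074), and without Ctrl replicate 1 (0.0635), 2 (0.0835) or 3 (0.0507).

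BAK1 (ENSG00000030110.8) had 78.7, 81.0 and 81.5 TPM in Dox, against 81.4, 83.1 and 86.8 TPM in Ctrl. The groups overlap, and the log2 fold change of -0.06 ± 0.04 did not pass (limma adjusted p = 0.23). The test calls it lower once libraries are rescaled by median ratio (-0.17, limma adjusted p = 0.0071) and after quantile normalization (-0.16, limma adjusted p = 0.0089). The pseudogene BAK1P1 had 1.22 ± 0.349 TPM in Dox and 1.05 ± 0.0790 TPM in Ctrl.

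Of the BH3-only members, 3 fell and BID was slightly higher. PMAIP1 (ENSG00000141682.11), whose product NOXA binds MCL1 selectively, had 4.42, 4.65 and 4.53 TPM in Dox, against 12.9, 15.7 and 16.4 TPM in Ctrl. The Dox libraries are nearly alike and all lie far below the Ctrl libraries, with 3.31-fold lower mean TPM. The reads were 74, 86 and 89 in Dox and 258, 296 and 311 in Ctrl. Its log2 fold change was -1.52 ± 0.09 (limma adjusted p = 7.4e-06), and 17 tested genes had a lower one.

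BCL2L11 (ENSG00000153094.17) encodes BIM, which binds all the main anti-apoptotic proteins. It had 3.07, 3.43 and 3.67 TPM in Dox, against 6.66, 7.59 and 7.05 TPM in Ctrl. The groups do not overlap, and mean TPM was 2.10-fold lower in Dox. The log2 fold change was -0.89 ± 0.09 (limma adjusted p = 9.7e-05), and -1.10 with voom on recovered reads, which use no pseudocount of 1 TPM. The non-coding gene MIR4435-1HG shares 727 exon bases with BCL2L11 on the opposite strand. It moved the other way, at 4.29 ± 0.613 TPM in Dox and 1.64 ± 0.0555 TPM in Ctrl (log2 fold change 0.998 ± 0.11, limma adjusted p = 0.000194). Its part in the BCL2L11 value was not tested.

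BBC3 (ENSG00000105327.11) encodes PUMA, a BH3-only protein that binds all the main anti-apoptotic proteins, as BIM does. It had 22.9, 23.0 and 27.1 TPM in Dox, against 34.2, 35.1 and 36.5 TPM in Ctrl. The groups do not overlap, although Dox replicate 3 stands above the other Dox libraries. The log2 fold change was -0.52 ± 0.07 (limma adjusted p = 0.00051).

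BID (ENSG00000015475.14), which links death receptors to mitochondria once caspase-8 has cleaved it, had 13.2, 12.4 and 13.2 TPM in Dox, against 11.1, 10.9 and 10.6 TPM in Ctrl. The groups do not overlap, and the log2 fold change was 0.23 ± 0.05 (limma adjusted p = 0.0081). The call is lost after median-ratio rescaling (0.13, limma adjusted p = 0.088) and after quantile normalization (0.06, limma adjusted p = 0.44).

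**Figure D3:**
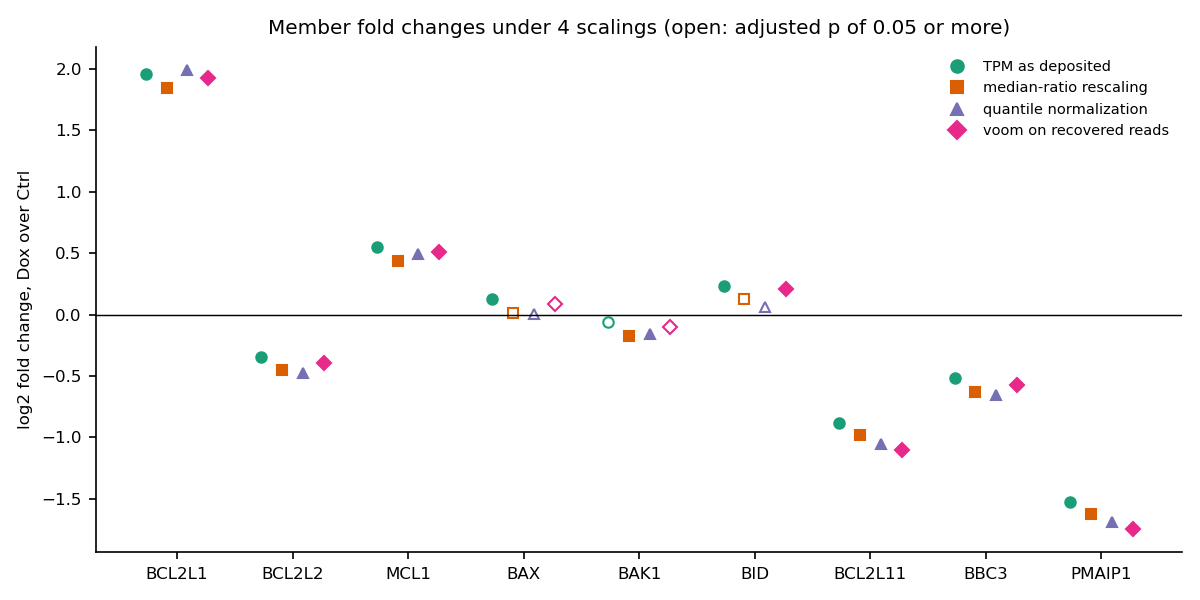
Log2 fold change, Dox over Ctrl (vertical axis), of the 9 tested members on the deposited TPM scale, after median-ratio rescaling, after quantile normalization and with voom on recovered reads. Open symbols have an adjusted p of 0.05 or more. BCL2L1, MCL1, BCL2L2, BCL2L11, BBC3 and PMAIP1 are called in the same direction under these 4 scalings, whereas BAX, BAK1 and BID are not.

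Ordered by mean TPM, the members ran BCL2L1, MCL1, BAK1, BAX, BCL2L2, BBC3, BID, PMAIP1, BCL2L11, BCL2 in Dox. The order in Ctrl was the same except that PMAIP1 stood above BID. For all 9 neighbouring pairs, in Dox as in Ctrl, the libraries of the higher gene did not overlap those of the lower one. The lead of BCL2L1 over MCL1 was wide in Dox, at 661 ± 10.9 against 225 ± 9.90 TPM, and narrow in Ctrl, at 169 ± 3.48 against 153 ± 5.07 TPM.

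The balance of anti-apoptotic to pro-apoptotic transcripts was higher in Dox. The 4 anti-apoptotic members summed to 900, 939 and 909 TPM in Dox, against 350, 370 and 366 TPM in Ctrl. The 6 pro-apoptotic members summed to 180, 186 and 190 TPM in Dox, against 201, 205 and 213 TPM in Ctrl. The ratio of these sums was 4.997, 5.05 and 4.78 in Dox, against 1.74, 1.80 and 1.71 in Ctrl. The groups are far apart, with a difference of 1.497 ± 0.03 (SE) in the log2 ratio. No test is given for this or any other ratio, since the members were chosen. The ratio is taken within a library, so a single scaling factor per library, as in median-ratio rescaling, leaves it as it is. It was not computed after quantile normalization, which does not use a single factor.

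Most of the difference in the sums lay with BCL2L1, which held 72.1 ± 0.663% of the anti-apoptotic sum in Dox and 46.7 ± 0.417% in Ctrl. Without BCL2L1 the ratio was 1.38 ± 0.0710 in Dox and 0.933 ± 0.0258 in Ctrl, a log2 difference of 0.56. On the other side, the 2 effectors summed to 140 ± 3.22 TPM in Dox and 138 ± 3.85 TPM in Ctrl, a difference smaller than the spread between replicates. The 4 BH3-only members summed to 45.2 ± 2.88 TPM in Dox and 68.2 ± 3.005 TPM in Ctrl. With each member given equal weight, as the mean of log2(TPM + 1) per side, the difference was 0.93.

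**Figure D4:**
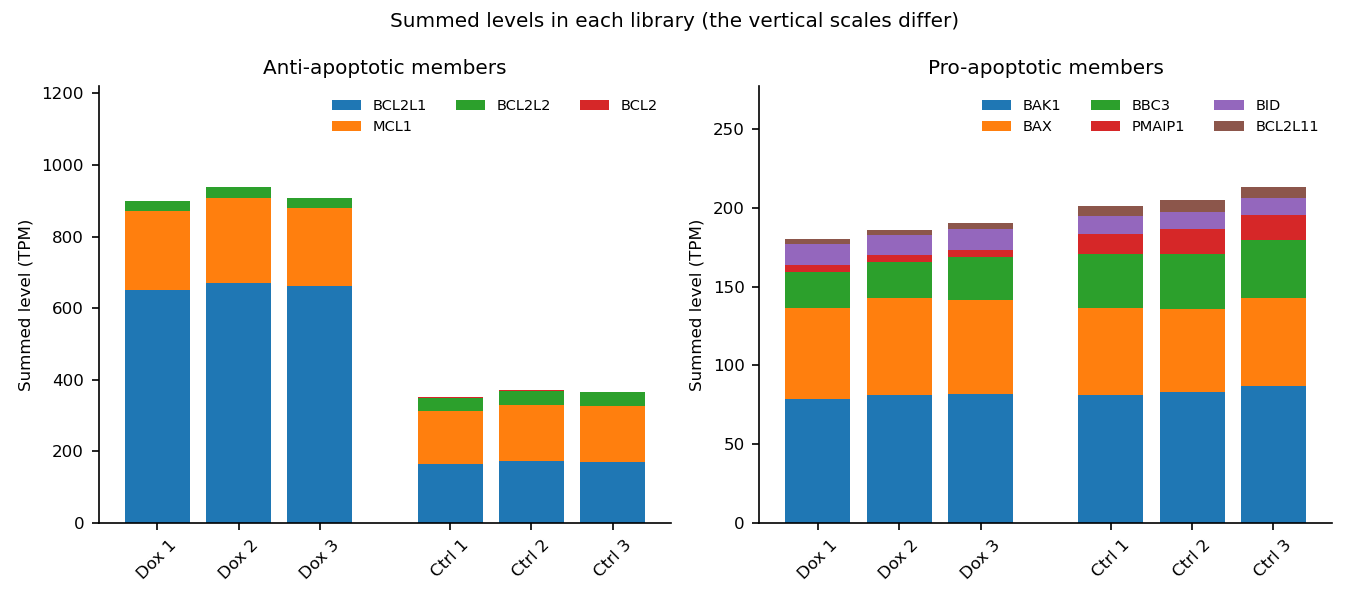
Stacked TPM (vertical axes, from 0) of the 4 anti-apoptotic members (left) and the 6 pro-apoptotic members (right) in each library, with Dox left of Ctrl. The vertical scales differ. The anti-apoptotic bars reach 900 to 939 TPM in Dox and 350 to 370 TPM in Ctrl, whereas the effector blocks BAK1 and BAX are of similar height throughout.

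Pairs of binding partners differed likewise. The ratio of MCL1 to PMAIP1 in TPM was 49.95, 50.8 and 48.0 in Dox, against 11.5, 9.92 and 9.59 in Ctrl. The order of the members, the sums and all such ratios depend on the length used for each gene, which the replicate spread does not show. BCL2L1 per BAX was 11.0 ± 0.157 in Dox and 3.09 ± 0.145 in Ctrl, and BCL2L1 per BAK1 was 8.22 ± 0.0902 in Dox and 2.02 ± 0.0593 in Ctrl. MCL1 per BAK1 differed less, at 2.80 ± 0.124 in Dox and 1.83 ± 0.0370 in Ctrl. For each of these 4 ratios the lowest Dox library lay above the highest Ctrl library.

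Other BCL2 homologs, listed beside the members, were lower more often than higher. Of 13 genes 9 were tested, with 2 higher and 5 lower, against 35.9% higher and 17.8% lower of all tested genes. Their median log2 fold change was -0.15, against 0.10 for all tested genes. After median-ratio rescaling 2 were higher and 7 lower, against 3915 higher and 4010 lower of all 14833 tested genes. The largest falls were those of 2 further BH3-only genes. BMF, known for its link to the cytoskeleton and cell detachment, had 3.78, 4.03 and 4.24 TPM in Dox, against 14.0, 14.2 and 14.6 TPM in Ctrl (log2 fold change -1.61 ± 0.06, limma adjusted p = 9.4e-07). BIK had 15.0, 15.0 and 17.4 TPM in Dox, against 35.1, 35.5 and 42.8 TPM in Ctrl (-1.21 ± 0.09, limma adjusted p = 2.6e-05). For both genes the groups are far apart.

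BOK, an effector relative of BAX and BAK1, fell to 38.4 ± 1.31 TPM in Dox, against 53.4 ± 1.86 TPM in Ctrl. BNIP3, a mitophagy receptor raised by hypoxia, fell to 630 ± 19.9 TPM in Dox, against 973 ± 27.5 TPM in Ctrl. BAD, a BH3-only protein controlled by phosphorylation, had 129 ± 7.75 TPM in Dox and 141 ± 2.53 TPM in Ctrl and did not pass (limma adjusted p = 0.059), but is called lower after median-ratio rescaling (-0.23). BCL2L13 rose to 55.3 ± 0.634 TPM in Dox, against 40.2 ± 2.03 TPM in Ctrl. BCL2L14 rose to 2.96 ± 0.175 TPM in Dox, against 1.94 ± 0.333 TPM in Ctrl, a call lost after quantile normalization (limma adjusted p = 0.075). The anti-apoptotic BCL2A1 and BCL2L10 and the BH3-only gene HRK were listed at 0 in all Dox libraries and had at most 2 reads in a Ctrl library. At most 3 reads, the limit that a count of 0 allows, would be 0.368 TPM for BCL2A1, 0.304 TPM for BCL2L10 and 0.0585 TPM for HRK.

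Downstream of the membrane, caspase genes were mostly higher and cytochrome c lower. Of 12 tested genes of the apoptosome and caspases, 7 were higher and 2 lower, with a median log2 fold change of 0.16 (4 higher and 2 lower after median-ratio rescaling). The shares over all tested genes were 35.9% higher and 17.8% lower on the deposited scale. After median-ratio rescaling 3915 of all 14833 tested genes were higher and 4010 lower. CASP8, the initiator caspase that cleaves BID, rose to 10.5 ± 0.0597 TPM in Dox, against 5.36 ± 0.186 TPM in Ctrl (log2 fold change 0.86 ± 0.06, limma adjusted p = 1.7e-05). CASP6 and CASP2 rose by 0.38 and 0.31 on the log2 scale. CYCS, cytochrome c itself, fell to 157 ± 9.88 TPM in Dox, against 224 ± 9.86 TPM in Ctrl, and the mitochondrial nuclease gene ENDOG fell by 0.20 on the log2 scale.

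**Figure D5:**
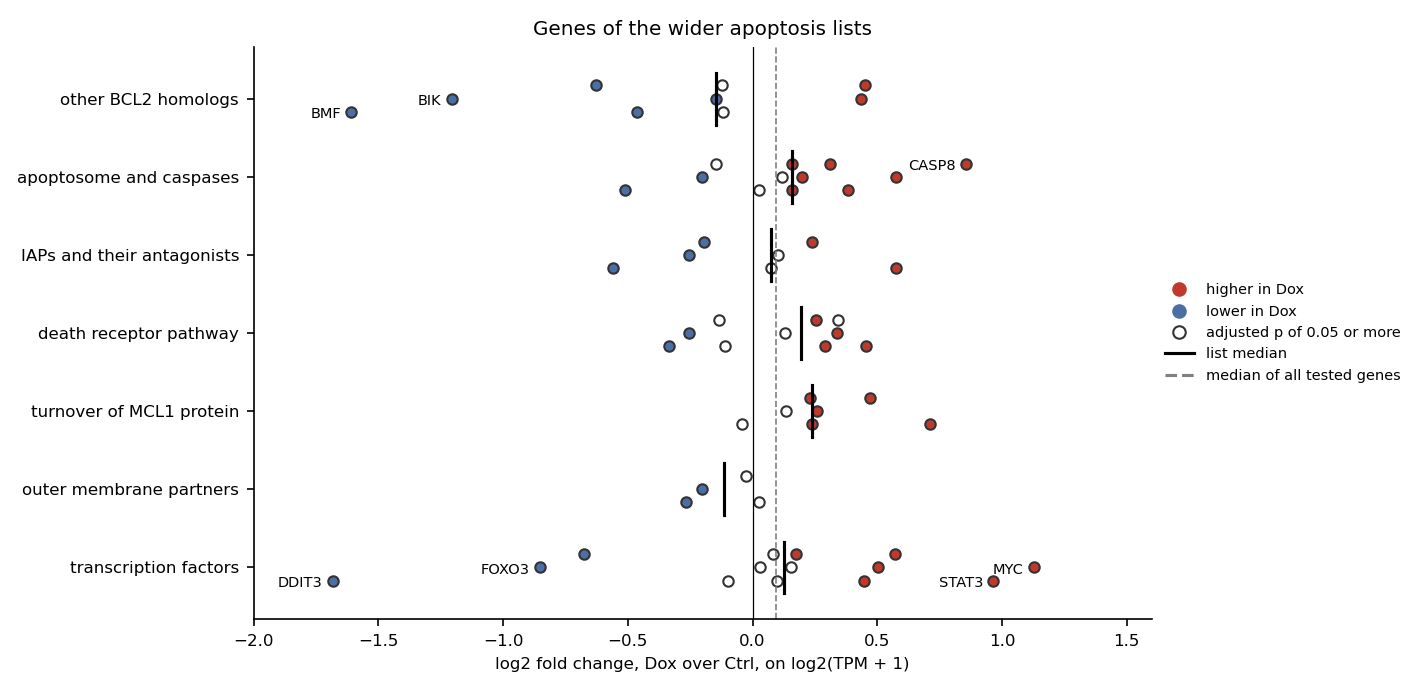
Log2 fold change, Dox over Ctrl, on log2(TPM + 1) (horizontal axis) of the tested genes in each wider list, 1 point per gene. Filled points passed the test, black bars are list medians and the dashed line is the median of all tested genes, 0.10. BMF and BIK lie lowest among the homologs, at -1.61 and -1.21, and CASP8 highest among the caspases, at 0.86.

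IAPs, the inhibitors that bind caspases or tag them for degradation, were divided, and so was the death receptor pathway. Of 7 tested IAPs and antagonists 2 were higher and 3 lower (median 0.07), against 35.9% higher and 17.8% lower of all tested genes. BIRC6 rose to 15.0 ± 0.339 TPM in Dox, against 9.82 ± 1.47 TPM in Ctrl, and BIRC3 fell to 4.61 ± 0.401 TPM in Dox, against 7.26 ± 0.278 TPM in Ctrl. BIRC5 fell by 0.26 on the log2 scale. XIAP was 0.24 higher, a call lost after median-ratio rescaling (limma adjusted p = 0.073), after quantile normalization (0.23) and without Dox replicate 2 (0.071), Ctrl replicate 1 (0.058) or Ctrl replicate 3 (0.055). BIRC2 had a log2 fold change of -0.19, a call lost without Dox replicate 2 (limma adjusted p = 0.086) or 3 (0.090), without Ctrl replicate 2 (0.065) or 3 (0.105), and without the filter (0.061).

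Of 10 tested death receptor genes 4 were higher and 2 lower (median 0.19), but 1 was higher and 4 lower after median-ratio rescaling. Over all tested genes 35.9% were higher and 17.8% lower on the deposited scale. After median-ratio rescaling 3915 of all 14833 tested genes were higher and 4010 lower, so these counts say little by themselves. The adaptor FADD rose to 41.7 ± 2.55 TPM in Dox, against 30.3 ± 3.90 TPM in Ctrl. The receptor TNFRSF1A fell to 41.1 ± 1.16 TPM in Dox, against 49.3 ± 1.40 TPM in Ctrl. The small changes of TRADD (0.29), CFLAR (0.26) and FAS (-0.33) each lose their call under at least 1 alternative. The call of TRADD is lost after either rescaling (limma adjusted p = 0.053 and 0.19). That of CFLAR is lost without any 1 of the 6 libraries (limma adjusted p = 0.055 to 0.097). That of FAS is lost without Dox replicate 1 (limma adjusted p = 0.11) or 3 (0.12) and without Ctrl replicate 1 (0.094), 2 (0.088) or 3 (0.085).

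Genes for the turnover of MCL1 protein were higher in 5 of 7 cases, and none was lower on the deposited scale (median 0.24, with 4 higher and 1 lower after median-ratio rescaling). On the deposited scale 35.9% of all tested genes were higher and 17.8% lower. After median-ratio rescaling 3915 of all 14833 tested genes were higher and 4010 lower. HUWE1, a ubiquitin ligase of MCL1, rose to 80.9 ± 3.58 TPM in Dox, against 49.1 ± 3.30 TPM in Ctrl (log2 fold change 0.71 ± 0.06, limma adjusted p = 3.7e-05). The ligase subunit BTRC rose by 0.47, and USP9X, a deubiquitinase that spares MCL1, rose by 0.26 on the log2 scale. GSK3A was 0.24 higher, a call lost after median-ratio rescaling (limma adjusted p = 0.071) and quantile normalization (0.11). Of 4 outer membrane partners 2 were lower and none higher (median -0.11). VDAC1, the main channel of that membrane, fell to 579 ± 7.06 TPM in Dox, against 697 ± 0.757 TPM in Ctrl, and MTCH2, the mitochondrial receptor of cleaved BID, fell to 290 ± 1.75 TPM in Dox, against 334 ± 3.95 TPM in Ctrl.

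Of 14 tested transcription factors known to act on BCL2 family genes, 6 were higher and 3 lower (median 0.13, with 5 higher and 4 lower after median-ratio rescaling). On the deposited scale 35.9% of all tested genes were higher and 17.8% lower. After median-ratio rescaling 3915 of all 14833 were higher and 4010 lower, so these counts say little by themselves. STAT3, an activator of BCL2L1 and MCL1, had 103, 103 and 102 TPM in Dox, against 50.6, 53.9 and 51.3 TPM in Ctrl (log2 fold change 0.97 ± 0.04, limma adjusted p = 6.7e-07). FOXO3, an activator of BCL2L11 and BBC3, had 12.6, 15.7 and 15.7 TPM in Dox, against 25.2, 27.6 and 28.98 TPM in Ctrl (-0.85 ± 0.09, limma adjusted p = 0.000175). For both genes the groups are far apart. MYC, STAT5A and FOXO1 rose by 1.13, 0.50 and 0.57, and DDIT3 and ATF4 fell by 1.68 and 0.68 on the log2 scale. FOXO1, of the same family as FOXO3, thus moved opposite to it, while BCL2L11 and BBC3 fell. The part of these factors in the levels of the members was not tested. TBX5, a partner of YAP1 at the BCL2L1 promoter in colon cancer cells, was too low to test, at 0.0261 TPM or less in Dox and 0.136 TPM or less in Ctrl.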

How the data were processed

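RNA of 6 libraries, made with a stranded mRNA kit, was measured (3 Dox, 3 Ctrl, grouped by title). Per the submitters' processing notes, FastQC 0.11.2, STAR 2.5.3a, hg19 and featureCounts were used, and edgeR is named with no role. The annotation release is not stated in the labels. The authors deposited 1 TPM value per gene and library, and since these are shares, a large rise of one gene reduces the rest.

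Whole reads were recovered by scaling TPM with gene length (tolerance 0.01 reads). Of the 14833 tested genes, 9115 came out whole with the GENCODE 29 length and 5718 with the smallest length that gave whole reads, 100% in all, and reads sharing a divisor would be too low by it. In TPM, 3 reads on 1 kb amount to 0.335 to 0.401, for counting error alone. Replicates differed beyond counting error (chi-square of 2.38 to 4.49 per gene).

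Two-sided tests used log2(TPM + 1) and limma 3.58.1 (R 4.3.3) with its mean-variance trend, and called genes at a Benjamini-Hochberg adjusted p under 0.05, among those reaching 1 TPM in 3 or more libraries. Log2 values on this scale understate changes of low genes, and fold values without "log2" are ratios of mean TPM. In simulated libraries (Dox against Ctrl, 14833 genes, 50 changed per size) the test found 20% of 1.2-fold changes, 62% of 1.5-fold, 76% of 2-fold and 90% of 4-fold ones, with 10 false calls. In the real libraries 53.7% of tested genes were called, far more than were changed in the simulation. These rates therefore need not hold for the real libraries. Alternatives changed the pseudocount (0.1), the filter (none, or a mean of 5 TPM), the scaling (median ratio, quantiles), the test (voom on recovered reads), added a replicate block or dropped 1 library. The members and the wider lists were chosen with earlier results of these data known. Up to 4 called genes per direction with groups that do not overlap are named from each list, by size of change, with list genes at 0. Further list genes were picked with their values known. For the members that rose and fell most, the 3 genes nearest in profile are given. GENCODE 29 (GRCh38) gave lengths and overlaps, and RefSeq gave promoters. Figures were drawn with matplotlib 3.10.9.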

Additional observations from a re-analysis of the deposited data

How the results depend on the processing

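BCL2L1, MCL1, BCL2L2, BCL2L11, BBC3 and PMAIP1 kept their direction and passed the test under all 13 alternatives run. The changes of filter and the replicate block leave each log2 fold change as it is. Direction was therefore fixed under them, and only the adjusted p could move. Over the 9 tested members, 104 alternative values kept direction and side of the threshold, 11 (9 of BAX, 2 of BID) no longer passed, and 2 (of BAK1) newly passed as lower. After median-ratio rescaling or quantile normalization 2 members were called higher. Over all genes, quantile normalization called 3536 higher and 4348 lower and median-ratio rescaling 3915 higher and 4010 lower, against 5319 higher and 2640 lower as deposited. The causes were not tested. Deviations from the group mean correlated at -0.0085, 0.063 and 0.0035 for same-numbered libraries, and at -0.040 to 0.038 for differently numbered ones. These small values show no pairing by number, but so few correlations cannot exclude it. With a replicate block 3 members were higher and 4 lower, BAX being lost (limma adjusted p = 0.054). The block cannot change the balance difference of 1.497, since with equal groups the mean paired difference is the difference of the group means.

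The log2 difference in balance, 1.497, was 0.93 with equal weights, 1.32 with effectors alone and 1.94 with BH3-only members alone as the pro-apoptotic side. It was 0.56 without BCL2L1, 1.61 without BCL2L2, 1.89 without MCL1, 1.61 without BAX, 1.57 without BAK1, 1.43 without BBC3 and 1.42 without PMAIP1. In 2 settings added after the data were seen it was 1.62 with BOK, BAD, BIK and BMF counted as pro-apoptotic and 0.49 without BCL2L1 and PMAIP1. Leaving out each library gave 1.48 to 1.52. Depth limits BCL2, with 15 to 44 reads in a library.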

Other observations

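The genes whose profile over the 6 libraries was nearest to that of BCL2L1 (Euclidean distance between log2(TPM + 1) values centred on each gene's mean) were SHB, TNFRSF12A and MYL9, at distances of 0.0670, 0.0725 and 0.0789. SHB, an adaptor of receptor tyrosine kinases, had 49.5 ± 1.17 TPM in Dox and 12.3 ± 0.384 TPM in Ctrl (SD, n = 3 each). TNFRSF12A, the receptor for the cytokine TWEAK, had 227 ± 2.29 TPM in Dox and 59.2 ± 1.596 TPM in Ctrl. MYL9, a myosin light chain, had 98.1 ± 3.80 TPM in Dox and 24.8 ± 0.304 TPM in Ctrl.

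Nearest to PMAIP1 were SNORD42B, BMF and TSC22D3, at distances of 0.228, 0.249 and 0.296. BMF is itself a BH3-only gene of the family. TSC22D3, a glucocorticoid-induced leucine zipper protein, had 79.4 ± 3.95 TPM in Dox and 229.8 ± 3.56 TPM in Ctrl. SNORD42B, a small nucleolar RNA, was listed at 0 in the 3 Dox libraries and had 1.73 ± 0.0576 TPM in Ctrl. It thus reached the level needed for the test only through the Ctrl libraries. There 1 read on 1 kb amounts to 0.112, 0.119 and 0.118 TPM, and to more on a shorter gene. The reads behind SNORD42B were not examined, so its small SD and its place nearest to PMAIP1 carry little weight. With 2 groups, likeness over 6 libraries is mostly a likeness in fold change.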
